A study of Mus musculus with 2 samples.

Results

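Caspases and the proteins that switch them on or hold them in check were followed through 8 genes: Casp2, Casp6, Casp8, Casp9, Apaf1, Xiap, Birc2 and Birc5. They were taken by gene identifier from the deposited tables and named through the GENCODE annotation, and make up 8 of 43346 Ensembl gene rows and 46 of 103639 transcripts. The RNA was polyA-selected and read as paired ends from G1E-ER4, an immortalized mouse erythroid line. Its parent line G1E has no functional GATA1, the master transcription factor of red cells. G1E-ER4 carries a GATA1–estrogen receptor fusion protein, which estradiol activates. Both libraries come from cells given 17beta-estradiol at 10 nM for 14 h and form 1 group, numbered as biological replicates 1 and 2. They share 1 biosample record in the labels, so part of their spread may be technical, and whether the line is 1 clone is not given in the sources used here. No cells without estradiol and no earlier time were analysed here, so every value is a level at 14 h or a difference between the libraries.

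Caspases are cysteine proteases that cut their targets after aspartate. Initiator caspases are activated on protein platforms and then cut effector caspases, which take the cell apart. Casp9 is activated on the apoptosome, which Apaf1 forms once cytochrome c leaves the mitochondria. Casp8 is activated below death receptors, and Casp2 on a platform that contains Pidd1. Inhibitor of apoptosis proteins carry BIR domains, and Xiap binds and blocks caspases directly. In red cell precursors caspases are also known to be active during normal maturation, where their substrates include nuclear lamins.

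Replicate 1 held 38395479 expected counts and replicate 2 held 60097379. The limit that a count of 0 leaves, 3 counts, equals 0.0781 and 0.0499 CPM (counts scaled to a library of 1000000), for counting error only. All 9 erythroid markers were expressed, that is, at 1 or more TPM (transcripts per 1000000, a count divided by transcript length and scaled to that sum) in both libraries. Their summed TPM was 23323 in replicate 1 and 74598 in replicate 2, most of it from Hbb-bs (13158 and 49652) and Hba-a1 (7118 and 21029). Klf1 (1422 and 754) and Tal1 (329 and 246) were lower in replicate 2. Gata1, which the line also carries as the fusion, had 1132 and 2656 TPM, and the part of the fusion in this level was not tested. Globin genes took 3.02% and 8.06% of all TPM. Of the markers of other cells, 1 of 6 for macrophages and granulocytes (Spi1, at 22.3 and 19.7 TPM), 2 of 3 for megakaryocytes (Itga2b and Gp1ba), 0 of 3 for lymphocytes and 0 of 3 for fibroblasts and endothelium were expressed. Elane, Adgre1, Ly6g, Pax5 and Pdgfra were listed at 0 in both libraries.

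Of the 8 genes, 7 were expressed, against 37.6% of 21461 nuclear protein-coding genes. Birc5 alone reached 50 TPM in both libraries, a level met by 9.05% of coding genes. Casp8 alone was not detected, meaning under 0.1 TPM in both libraries, which held for 52.4% of coding genes. By mean TPM the order was Birc5, Xiap, Apaf1, Casp9, Casp6, Birc2, Casp2, Casp8. In bulk RNA, fewer cells that hold a transcript and less of it in each cell cannot be told apart.

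Among the initiators, Casp2 had 5.80 TPM in replicate 1 and 4.76 in replicate 2, from 582 and 861 counts (mean 5.28 ± 0.735, SD, n = 2). Casp9, the initiator of the mitochondrial route, had 25.6 and 20.6 TPM from 761 and 1177 counts (mean 23.1 ± 3.54). Both genes stood at similar levels in the libraries, with replicate 1 slightly above replicate 2. Casp8, the initiator below death receptors, had 0 counts in both libraries on all 4 of its transcripts. A count of 0 allows up to 0.0533 TPM in replicate 1 and 0.0300 in replicate 2 at the effective length of Casp8. The upper bounds of TPM that the authors deposited for Casp8, at a level not stated, are 0.146 and 0.0809. Gm37760, a gene model on the same strand that overlaps Casp8 (chr1:58795374-58847503, plus strand, mm10), had 3 and 5 counts.

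Casp6, an effector caspase known to cut lamin A, had 19.97 TPM in replicate 1 and 24.43 in replicate 2, from 340 and 782 counts (mean 22.2 ± 3.15). Apaf1, the scaffold of the apoptosome, had 59.6 and 31.7 TPM from 3493 and 3193 counts (mean 45.7 ± 19.7). Casp6 was the higher in replicate 2 and Apaf1 in replicate 1.

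Of the inhibitors, Xiap had 90.8 TPM in replicate 1 and 48.9 in replicate 2, from 1615 and 1791 counts (mean 69.9 ± 29.6). Birc2, which encodes cIAP1, a ubiquitin ligase of the TNF receptor pathway, had 7.55 and 13.5 TPM from only 115 and 227 counts (mean 10.5 ± 4.20). Birc5 encodes survivin, a small BIR protein that belongs to the chromosomal passenger complex of dividing cells. It had 63.6 TPM in replicate 1 and 200.04 in replicate 2, from 1847 and 9596 counts (mean 131.8 ± 96.5). Birc5 was the first of the 8 genes in replicate 2, and in replicate 1 it came after Xiap.

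Neighbours in the order were taken to differ beyond their spread where the log2 ratio of TPM + 0.1 had 1 sign in both libraries and its mean was over 2 times the range between them. This held for 3 of the 7 neighbouring pairs: Xiap over Apaf1 (0.62 ± 0.01), Casp6 over Birc2 (1.12 ± 0.38) and Casp2 over Casp8. The sign of Casp2 over Casp8 was fixed in advance, since Casp8 had 0 counts. Birc5 against Xiap (0.76 ± 1.80) had opposite signs in the libraries, as did Casp9 against Casp6 (0.05 ± 0.43). Apaf1 exceeded Casp9 in both libraries (0.92 ± 0.42) and Birc2 exceeded Casp2 in both (0.93 ± 0.78), by less than the criterion asks.

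**Figure D1:**
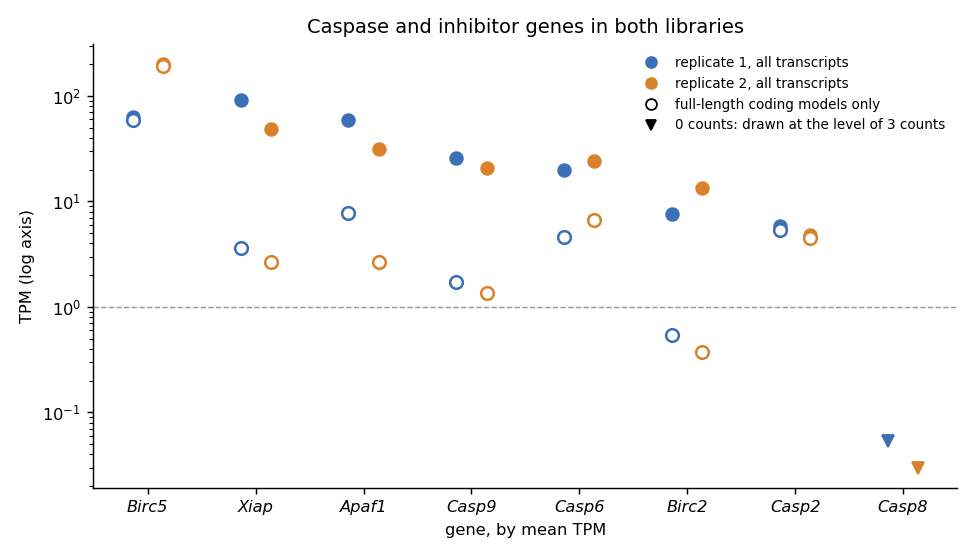
TPM of each gene in both libraries on a log axis, for all transcripts (filled) and for full-length coding models only (open), with the dashed line at 1 TPM and Casp8, which had 0 counts, drawn at the level of 3 counts. Open and filled points nearly coincide for Birc5 and Casp2, and lie far apart for Xiap, Apaf1, Casp9, Casp6 and Birc2.

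In TPM, the level of most of these genes was carried by a short transcript. A model was called full-length where it is protein-coding, complete at both ends and holds at least 90% of the gene's longest coding sequence, a definition made after the transcript values were seen. In 5 of the 7 expressed genes the transcript with the highest mean percent of the gene's TPM was not full-length. Over expressed coding genes with such a model that share was 31.5% (2472 of 7846). All 5 short models share the 5′ end of a full-length model within 200 bases and none shares the 3′ end. Of the 2472 genes, 53.3% had a most abundant model that shares only the 5′ end, and 10.5% one that shares only the 3′ end.

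**Figure D2:**
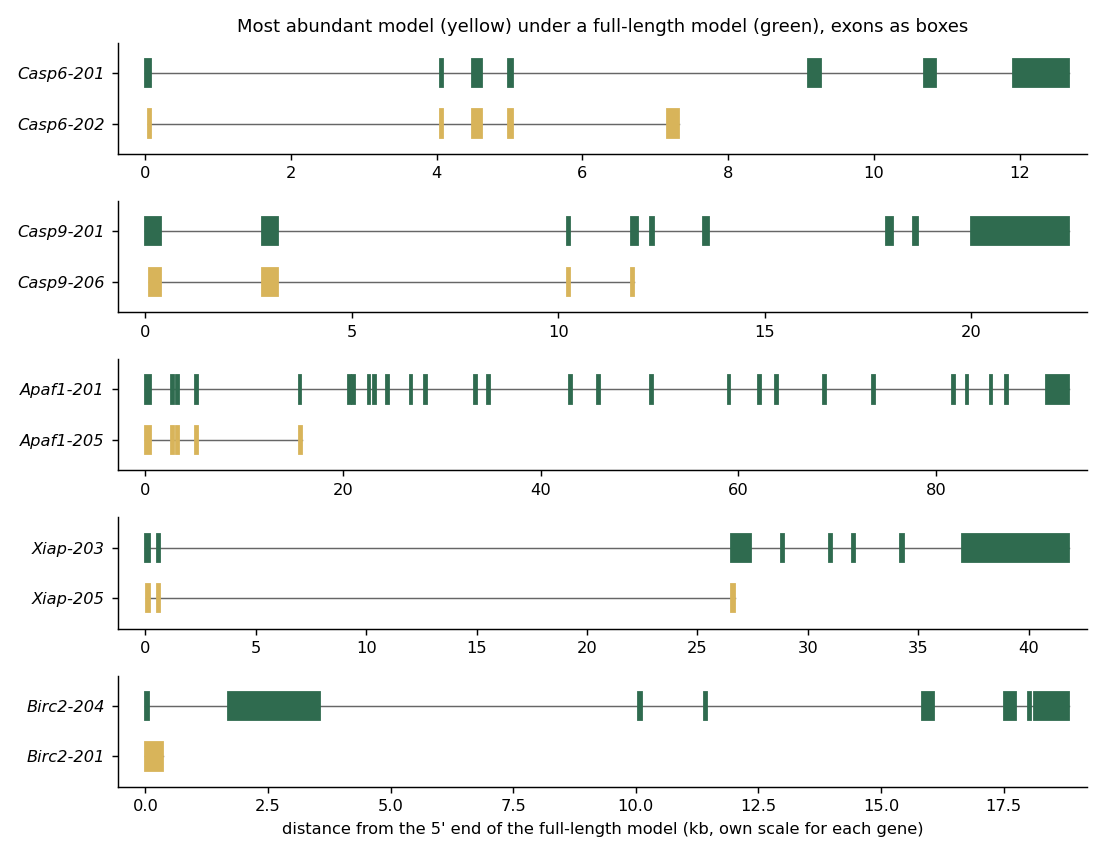
Exons (boxes) and introns (lines) of the most abundant model (yellow) and of the full-length model with the nearest 5′ end (green) for 5 genes, by distance from the 5′ end of the full-length model in kb, with a separate scale for each gene. Each yellow model begins near the start of the green one and stops well before its end, for Birc2 within the first intron.

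Apaf1-205 (chr10:91066890-91082770, minus strand, mm10) has 5 exons against 27, is 1596 bases long and codes for 258 codons, with the start codon of the 1249-codon form. It took 87.0% of the TPM of Apaf1 in replicate 1 and 88.0% in replicate 2, at 51.9 and 27.9 TPM. The models part at the end of the fifth exon, where Apaf1-205 reads on into the intron and Apaf1-202, a full-length model, joins the next exon. Both are shown because reads over these bases tell RNA that reads on into the intron from the spliced form. Capitals mark the bases common to both models, and all 60 bases of each are coding (GENCODE M21, GRCm38, minus strand).
Apaf1-205, chr10:91067051-91067110: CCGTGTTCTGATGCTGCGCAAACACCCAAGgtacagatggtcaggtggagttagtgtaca
Apaf1-202, spliced, chr10:91062187-91067110: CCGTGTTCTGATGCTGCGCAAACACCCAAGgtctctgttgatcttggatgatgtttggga
The 3 full-length models together had 7.73 TPM in replicate 1 and 2.69 in replicate 2, from 34.5% and 27.2% of the counts of Apaf1. Among these, Apaf1-208 with 1238 codons, had 11.8% of the TPM of Apaf1 in replicate 1 and 2.17% in replicate 2. Apaf1-202 went the other way, with 1.22% and 6.23%. Of the 1596 bases of Apaf1-205, 88.0% also lie in a full-length model and 191 do not. The lower-case bases printed for Apaf1-205 would also lie in RNA that keeps the intron, so they do not single out this model. Apaf1-207, also with 5 exons and 258 codons, spans these positions (chr10:91065392-91082429). It had 0 counts in replicate 1 and 135.57 in replicate 2.

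Casp6-202 (chr3:129901458-129908744, plus strand) is a processed transcript of 477 bases with no coding sequence. It shares the first 4 exons with Casp6-201, the 276-codon form, and then ends in an exon of its own. Casp6-202 took 76.2% of the TPM of Casp6 in replicate 1 and 72.1% in replicate 2, at 15.2 and 17.6 TPM. By counts the order turned: Casp6-201 held 54.6% and 59.99% of the counts, and Casp6-202 most of the rest. The short form leads only after division by its length. In the sequences at the end of exon 4 capitals mark the bases in both models; the lower-case part is coding in Casp6-201 and non-coding in Casp6-202 (plus strand).
Casp6-202, spliced, chr3:129906448-129908615: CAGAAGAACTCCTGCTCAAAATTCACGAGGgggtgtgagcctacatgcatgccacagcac
Casp6-201, spliced, chr3:129906448-129910552: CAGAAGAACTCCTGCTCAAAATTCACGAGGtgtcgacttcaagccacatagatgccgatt

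Casp9-206 (chr4:141793710-141805442, plus strand) is a coding model of 790 bases and 4 exons whose end is not annotated. It took 75.7% of the TPM of Casp9 in replicate 1 and 63.6% in replicate 2, at 19.4 and 13.1 TPM. Casp9-202, with 405 codons, took 17.6% and 29.8%, and Casp9-201, the 454-codon form, 6.74% and 6.64%. Casp9-202 begins at the same start codon as Casp9-201, lacks its exon 8 and holds 89.2% of the longest coding sequence, just under the limit set for a full-length model. Every base of Casp9-206 also lies in Casp9-201, and its own mark is the loss of 3 bases at the start of exon 2. Those bases are in capitals below (coding, plus strand, spliced).
Casp9-201, chr4:141793963-141796461: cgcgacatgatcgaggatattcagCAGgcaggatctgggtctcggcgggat
Casp9-206, chr4:141793963-141796461: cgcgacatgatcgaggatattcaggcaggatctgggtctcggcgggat
The level of Casp9 over full-length models was 1.72 TPM in replicate 1 and 1.37 in replicate 2. With the limit lowered to 80% of the longest coding sequence, which adds Casp9-202, the mean rose from 1.55 to 6.86 TPM.

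Xiap-205 (chrX:42067881-42094556, plus strand) is 487 bases long, has 3 exons and stops inside the first coding exon, after 52 codons of the 496-codon reading frame. It took 95.3% of the TPM of Xiap in replicate 1 and 93.4% in replicate 2, at 86.6 and 45.7 TPM. By counts it held 55.5% and 46.0%. All of its bases lie in full-length models, so no base is particular to it. Its exon 3 begins 26536 bases from the 5′ end of Xiap-203, a full-length model. In Xiap-203 itself exon 3 begins at 26531, so this splice site differs as well as the end. Capitals in this stretch of Xiap-204 mark the last bases that Xiap-205 holds, and the lower-case bases are the first it lacks (coding, plus strand).
Xiap-204, chrX:42094527-42094586: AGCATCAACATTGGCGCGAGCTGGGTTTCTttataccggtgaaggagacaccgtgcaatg
The 4 full-length models of Xiap together had 3.58 and 2.68 TPM, from 44.0% and 52.6% of its counts.

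Birc2-201 is a model of 378 bases in 1 exon at the 5′ end of Birc2 (chr9:7818227-7837064, minus strand). It took 84.6% of the TPM of Birc2 in replicate 1 and 96.3% in replicate 2. Its annotated reading frame of 125 codons holds 0 bases of the 612-codon frame of cIAP1, and 310 of its 378 bases lie outside the full-length models. The 60 bases printed follow the end of exon 1 of Birc2-204, are coding in Birc2-201 and intronic in Birc2-204, and carry no capitals (minus strand). They also lie in Birc2-203, a retained-intron model of 1 exon (chr9:7835748-7837063) with 20 counts in replicate 1 and 7.92 in replicate 2. These bases therefore do not tell Birc2-201 from RNA that keeps the intron.
Birc2-201, chr9:7836930-7836989: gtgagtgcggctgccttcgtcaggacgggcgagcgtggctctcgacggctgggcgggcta
The models that code for all 612 codons had 49 counts in replicate 1 and 62 in replicate 2, or 42.6% and 27.3% of the counts of Birc2. In TPM they had 0.54 and 0.37. Over full-length models Birc2 therefore fell below the level of 1 TPM used here for expressed, and 6 of the 8 genes stayed at or above it.

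For Casp2 and Birc5 the most abundant model was the full-length one. Casp2-201, with 452 codons, took 92.9% of the TPM of Casp2 in replicate 1 and 94.5% in replicate 2. Birc5-201, with 140 codons and 4 exons, took 93.6% and 96.2%. Birc5-202, with 121 codons and 3 exons, has a last exon that runs through the last intron of Birc5-201 and past its end. It took 6.44% and 3.79%. It held 398 counts in replicate 1 and 1312 in replicate 2, with a length of 3334 bases against the 947 of Birc5-201. Both forms begin at the same start codon, and capitals mark what they share before they part (coding, plus strand).
Birc5-201, spliced, chr11:117852757-117855248: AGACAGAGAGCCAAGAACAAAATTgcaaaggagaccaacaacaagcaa
Birc5-202, chr11:117852757-117852804: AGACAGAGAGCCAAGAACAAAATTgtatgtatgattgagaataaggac
Both forms of Birc5 had more counts in replicate 2 than in replicate 1. The lower-case bases of Birc5-202 do not tell it from RNA that keeps the last intron.

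**Figure D3:**
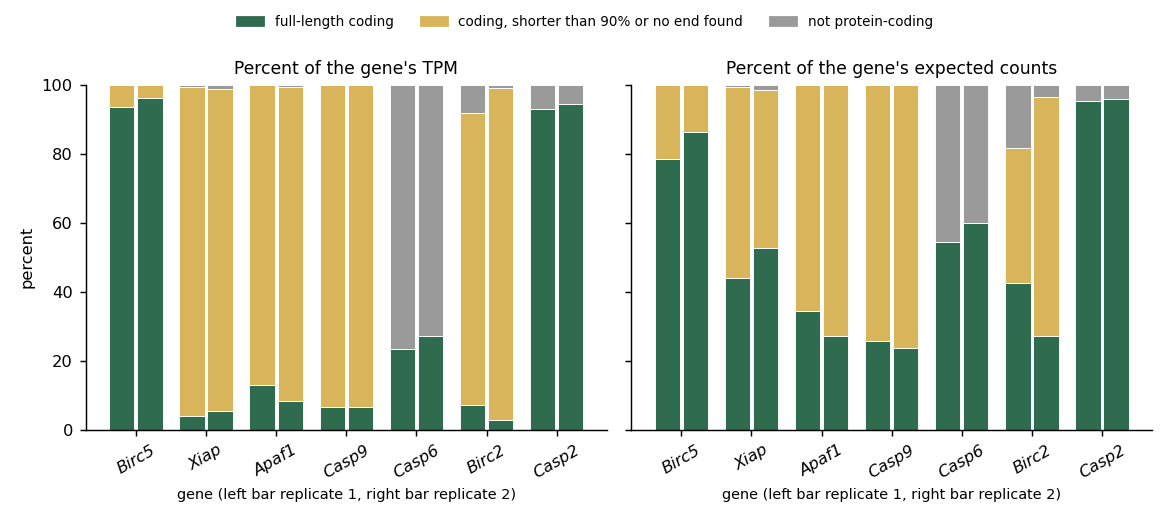
Percent of each gene's TPM (left panel) and of its expected counts (right panel) on full-length coding, other coding and non-coding transcripts, with 1 bar for each library and all bars adding to 100%. In Xiap the full-length part is 3.94% and 5.48% of TPM, and 44.0% and 52.6% of counts.

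Over full-length models alone the order changed to Birc5, Casp6, Apaf1, Casp2, Xiap, Casp9, Birc2, Casp8. Birc5 had 59.5 TPM in replicate 1 and 192.5 in replicate 2 on this scale, and Casp6 4.65 and 6.63. Casp2 had 5.39 and 4.50 TPM, close to its level over all transcripts. Birc5 over Casp6 (4.24 ± 0.84), Casp2 over Xiap (0.65 ± 0.11), Xiap over Casp9 (0.97 ± 0.07), Casp9 over Birc2 (1.58 ± 0.10) and Birc2 over Casp8 were beyond the spread. The sign of Birc2 over Casp8 was again fixed in advance, since Casp8 had no counts. Casp6, Apaf1 and Casp2 could not be put in order, since Casp6 against Apaf1 (0.27 ± 1.41) and Apaf1 against Casp2 (-0.10 ± 0.87) changed sign between the libraries.

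GC content differed between the short and long forms. The short model had 53.9% GC in Casp6 against 46.2% in the model with the longest coding sequence, 63.7% against 53.4% in Casp9, and 54.6% against 46.0% in Apaf1. For Xiap the values were 58.5% and 36.8%, and for Birc2 58.2% and 43.1%. Coding genes (21300 of 21461 had a value) were placed by the GC content of their most abundant transcript, where they had one. Of these, 22.8% were expressed between 40 and 45% GC and 52.2% between 55 and 60%. A gene without counts has no most abundant transcript, and Casp8 was placed by Casp8-204, a model with its longest coding sequence. The shares therefore mix kinds of model and are not a like comparison. The part of GC content and of the shared 5′ ends in the short forms' lead was not tested.

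The libraries were then compared for each gene, which compares 2 libraries of 1 condition and not conditions. For each gene with at least 10 counts in sum, an exact binomial test (two-sided) set the counts against TMM-scaled library sizes from edgeR. A call needed a Benjamini-Hochberg adjusted p under 0.05 over all genes tested and a fold of at least 1.5. Of 11230 genes 41.4% were called, 24.3% higher in replicate 2 and 17.1% higher in replicate 1. Of the 7 members tested, 1 was called higher in replicate 2 and 1 higher in replicate 1, which is not above the share over all genes. Their median log2 ratio was -0.09 and its median size 0.48, against 0.05 and 0.54 over all genes tested.

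Birc5 was 3.15-fold higher in replicate 2 (95% Clopper-Pearson interval 2.996 to 3.312, counting error only), with an adjusted p of 0 at the precision of the calculation. Apaf1 was 1.80-fold higher in replicate 1 (log2 ratio -0.85, adjusted p 9.63e-127 by the same exact binomial test). Both directions were the same over the sum of full-length models, at 3.23-fold for Birc5 and 2.87-fold for Apaf1 in TPM. In the deposited values the full-length models of Apaf1 did not move together. Apaf1-208 had 7 TPM in replicate 1 and 0.69 in replicate 2, and Apaf1-202 had 0.73 and 1.98. Both models have 27 exons, with 1238 codons in Apaf1-208 and 1249 in Apaf1-202, so the division of reads between them is uncertain. With all globin counts taken out of the library totals the log2 ratios were 1.76 for Birc5 and -0.75 for Apaf1, and both stayed called. The summed erythroid markers were also higher in replicate 2, though Klf1 and Tal1 were lower there, and their part in these differences was not tested.

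Xiap was 1.49-fold higher in replicate 1 (adjusted p 5.06e-30, exact binomial test), just under the fold asked for, and was called with DESeq2 size factors. Casp6 was 1.39-fold higher in replicate 2 (adjusted p 4.31e-07, exact binomial test), also under that fold. Casp2 (adjusted p 0.0599, exact binomial test), Casp9 (0.206) and Birc2 (0.150) did not pass the threshold. Birc2 differed 1.79-fold in TPM but 1.19-fold in scaled counts (interval 0.952 to 1.51, replicate 2 over replicate 1). The share of its counts on the short Birc2-201 was 39.1% in replicate 1 and 69.2% in replicate 2.

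**Figure D4:**
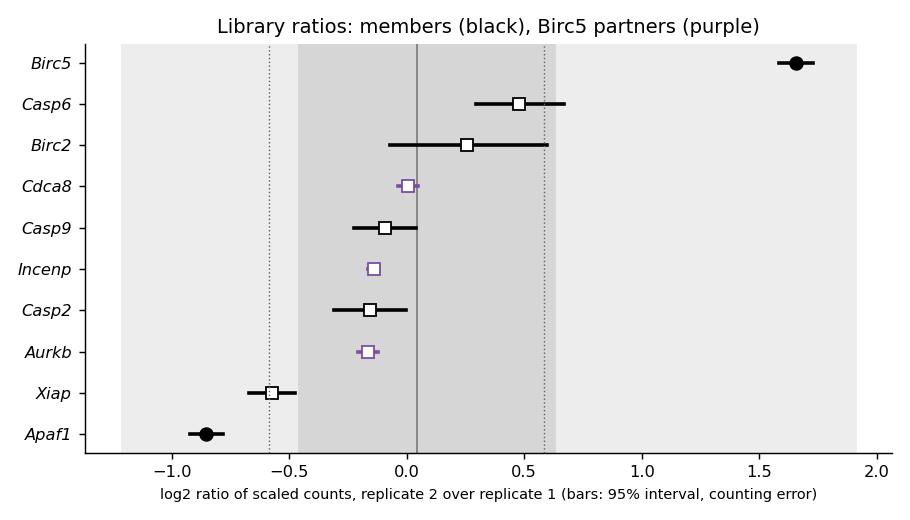
Log2 ratio of scaled counts, replicate 2 over replicate 1, for the 7 members tested (black) and for the chromosomal passenger partners of Birc5 (purple), with 95% intervals for counting error; filled circles were called, and the grey bands hold the middle 50% and 90% of all genes tested. Birc5 at 1.65 lies far to the right of Aurkb, Incenp and Cdca8, which lie between -0.16 and 0.00.

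Survivin works in mitosis together with the kinase Aurkb, the scaffold Incenp and borealin, encoded by Cdca8. All 3 partner genes were high, a level met by 9.05% of coding genes. None was called between the libraries, where 41.4% of all genes tested were. Incenp had 273.9 TPM in replicate 1 and 230.1 in replicate 2 (log2 ratio of scaled counts -0.14), Aurkb 302.2 and 272.1 (-0.16), and Cdca8 326.6 and 252.8 (0.00). The log2 ratio of Birc5 to Aurkb in TPM was -2.25 in replicate 1 and -0.44 in replicate 2, with a mean of -1.35 ± 1.27 that does not exceed the spread. Over full-length models Aurkb had 69.8 and 61.2 TPM and Cdca8 83.3 and 29.0, and Birc5 lay above Aurkb on average by 0.71 ± 1.33, again within the spread.

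Of the 45 other genes listed for the pathway, 27 were expressed, 8 were high and 14 were not detected. Of the 33 tested, 11 were called higher in replicate 2 and 4 in replicate 1, against 24.3% and 17.1% over all genes. For 10 of the 27 the most abundant model was not full-length, and 23 of the 27 were also expressed over full-length models.

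Among the other caspases, Casp1, Casp4, Casp12 and Casp14, known from inflammation, the endoplasmic reticulum and skin, had 0 counts in both libraries.

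All 8 genes listed for caspase activation and release from mitochondria were expressed, and 4 of them (Cycs, Diablo, Pidd1 and Aifm1) were called higher in replicate 2, against 24.3% of all genes tested. The serine protease Htra2 led with 129.6 and 103.5 TPM, though its full-length models had 8.78 TPM in replicate 1 and 0 in replicate 2. The nuclease Endog had 60.8 and 39.1 TPM, and Ppif, the cyclophilin of the mitochondrial pore, 41.1 and 26.9. Cycs, which encodes somatic cytochrome c, had only 2.90 and 4.40 TPM and its log2 ratio to Apaf1 in TPM was -3.57 ± 1.05, beyond the spread. Over full-length models that ratio was -0.57 ± 1.78 and in CPM -3.12 ± 1.36, each within the spread. The counts of Cycs were not whole numbers (201.93 and 710.97), so some of its reads may have been divided with other genes. The part of this in its low level was not tested. Diablo, an antagonist of Xiap, had a log2 ratio to Xiap of -3.64 ± 0.98 over all transcripts, beyond the spread, and of 0.56 ± 0.74 over full-length models, within it. In CPM the ratio was -2.42 ± 0.91, also within the spread. Casp2 against Pidd1 (-2.06 ± 0.89) and Casp9 against Apaf1 (-0.92 ± 0.42) did not exceed the spread in TPM. Over full-length models Casp2 against Pidd1 was 3.39 ± 3.37, also within the spread. On these models Pidd1 had 0 TPM in replicate 1 and 2.19 in replicate 2, against 15.9 and 31.3 over all transcripts.

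In the death receptor branch, 5 of 10 genes were expressed and 4 not detected. The adaptor Tradd had 21.4 TPM in replicate 1 and 27.6 in replicate 2, the kinase Ripk1 13.1 and 5.24, and the adaptor Fadd 9.52 and 6.84. Cflar, the catalytically inactive relative of Casp8, had 2.21 and 3.69 TPM. The receptors Fas and Tnfrsf1a had 0 counts, the receptor Tnfrsf10b had 65 and 95 (0.71 and 0.58 TPM), and the ligands Fasl and Tnfsf10 at most 3 in a library. Ripk1 was called higher in replicate 1, and Cflar and the ubiquitin ligase Traf2 in replicate 2. Fadd was at least 178.5-fold above the limit that 3 counts set for Casp8 in replicate 1 and at least 228-fold in replicate 2. For Cflar the bounds were 41.4-fold and 123-fold, over all transcripts. On full-length models Cflar had 0.55 TPM in replicate 1 and 1.69 in replicate 2, and Ripk1 had 1.81 and 1.64. The adaptors of the branch and Cflar were thus measured in both libraries, and Casp8 was not detectable at this depth.

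Of 7 other inhibitor of apoptosis genes 2 were expressed. Birc6, which encodes a giant BIR protein with ubiquitin-conjugating activity, had 23.96 and 24.99 TPM, of which 1.74 and 1.11 lay on full-length models. Birc3, which encodes cIAP2, the close relative of cIAP1, had 1.28 and 2.31 TPM. Birc7 and Naip1 had 0 counts in both libraries, and Naip5 at most 0.04 TPM. The Naip genes are close copies of each other, so the division of reads between Naip2, Naip5 and Naip6, which were called in different directions, is uncertain. Birc2 exceeded Birc3 by 2.48 ± 0.02 on the log2 TPM scale over all transcripts, beyond the spread. Over full-length models the ratio was -0.23 ± 0.33, within it. Xiap against Birc2 (2.71 ± 1.22) and Birc6 against Birc2 (1.27 ± 0.54) were within the spread in TPM. Both exceeded it over full-length models, at 2.54 ± 0.03 and 1.44 ± 0.11, and in CPM, at 3.36 ± 0.58 and 4.19 ± 0.29. With protein-coding transcripts only, Birc6 against Birc2 was -2.61.

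Among 11 known caspase substrates 8 were expressed and 4 were high. Lmna, which encodes lamins A and C, had 1340 TPM in replicate 1 and 872 in replicate 2, Acin1, a chromatin condensation factor, 521 and 497, and Lmnb1 125 and 85.2. Over full-length models Lmna had 417 and 251 TPM, Lmnb1 124.7 and 85.1, and Acin1 only 1.82 and 4.75. Dffa and Dffb, the inhibitor and the nuclease of DNA fragmentation, differed by -0.25 ± 0.45 on the log2 TPM scale, within the spread. Xkr8, a scramblase, was not detected with 2 and 13 counts, and the channel Panx1 and the pore former Gsdme had 0 counts.

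**Figure D5:**
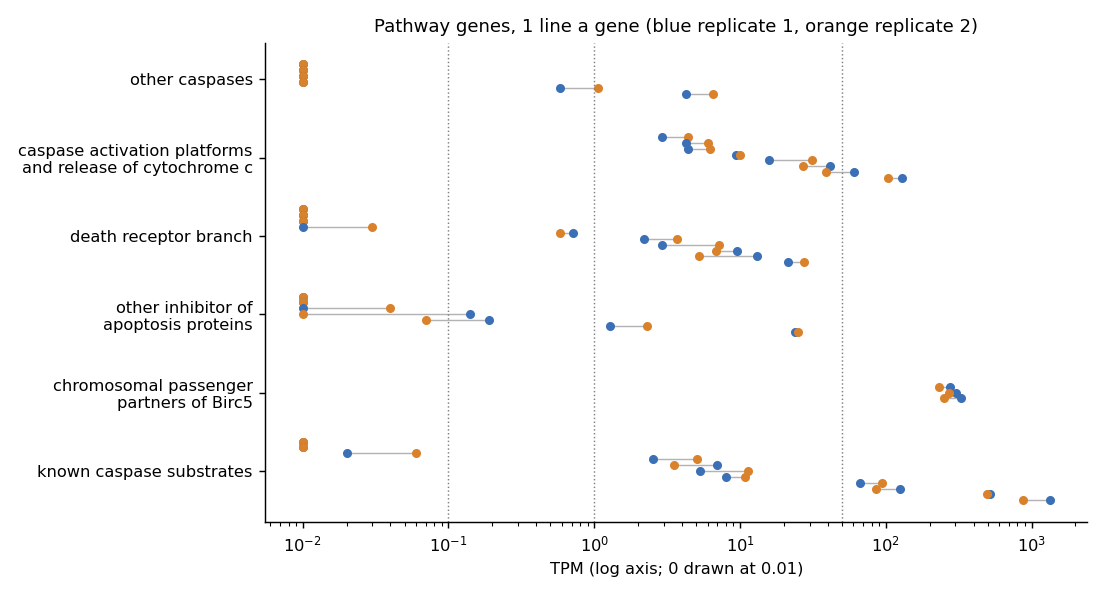
TPM of 45 pathway genes on a log axis, 1 line a gene, with replicate 1 in blue, replicate 2 in orange, 0 drawn at 0.01 and dotted lines at 0.1, 1 and 50 TPM. The passenger partners lie above 200 TPM, while 4 of 6 other caspases and 4 of 10 death receptor genes lie under 0.1 TPM in both libraries.

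Of the 15 pairs of genes compared within a library, 8 exceeded the spread in TPM and 8 over full-length models, but only 4 did so in the same direction under both, among them Casp9 below Xiap, and Fadd and Cflar above Casp8. Casp9 against Casp2 turned round. The log2 ratio of Casp9 to Casp2 was 2.11 ± 0.02 over all transcripts, 0.42 ± 0.05 in CPM and -1.62 ± 0.04 over full-length models, each beyond the spread. With Casp9-202 added it was 0.46, within the spread. Casp9 against Xiap was -1.53 ± 0.41 over all transcripts and -0.97 ± 0.07 over full-length models, and 1.12 once Casp9-202 was added to the latter. The pairs beyond the spread in the same direction under all these choices and in CPM were 3, among them Fadd over Casp8 and Cflar over Casp8. Casp8 was at 0 in both libraries, so the sign of a ratio to it was fixed in advance for any gene with counts. Keeping that direction under every choice is therefore no support for the pairs with Casp8. The size of these ratios rests on the amount added to each level, and whether they pass the criterion can depend on it. With 0.01, 0.1 or 1 added, Cflar over Casp8 was 8.16, 4.89 or 1.96 in TPM over all transcripts. Birc5 over Xiap (0.76 ± 1.80) was within the spread in TPM and beyond it over full-length models (5.07 ± 1.48).

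The 250 bases before the annotated starts were read as well. RefSeq (GRCm38.p6) gave at least 1 such window for each of the 8 genes, and each was searched for the dinucleotide CG, which reads the same on both strands. Casp8 had 5 matches, and the richest window of each other gene had 11 in Casp6, 13 in Xiap, 17 in Casp2, 19 in Birc5, 25 in Casp9, 31 in Birc2 and 42 in Apaf1. The other windows of Xiap, which has 3, had 1 match each, fewer than that of Casp8. Of 16312 coding genes matched, 39.8% were expressed. Among the 33.4% with at most 5 matches 6.04% were expressed, and among the 52.8% with at least 11 matches 62.8% were. The limits of 5 and 11 are the counts of Casp8 and of the lowest other member, so they were taken from the genes set beside them. The part of the CG number in the level of Casp8 was not tested. The windows of Casp8 and of Apaf1, the gene with the most matches, are printed with CG in capitals. The Casp8 window lies before the start at chr1:58802502, and the annotation has a further start upstream at chr1:58795374 whose window was not searched.
Casp8, chr1:58802252-58802501, plus strand: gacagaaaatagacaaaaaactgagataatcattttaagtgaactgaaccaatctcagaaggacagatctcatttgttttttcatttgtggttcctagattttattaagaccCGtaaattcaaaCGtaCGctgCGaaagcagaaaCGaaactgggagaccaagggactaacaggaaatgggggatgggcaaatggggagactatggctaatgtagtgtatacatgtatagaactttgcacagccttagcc
Apaf1, chr10:91082744-91082993, minus strand: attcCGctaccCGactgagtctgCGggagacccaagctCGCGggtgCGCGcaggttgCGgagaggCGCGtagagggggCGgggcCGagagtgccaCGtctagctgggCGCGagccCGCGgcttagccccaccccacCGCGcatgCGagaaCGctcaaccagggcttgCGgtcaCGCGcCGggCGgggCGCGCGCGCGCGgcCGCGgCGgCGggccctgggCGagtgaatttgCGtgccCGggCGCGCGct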

How the data were processed

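Per the labels and the deposited notes, reads were paired, the build was mm10 and the annotation GENCODE M4; aligner and quantifier version: not given in the sources used here. Expected counts, as the authors deposited them under RSEM's column names, estimate fragments per gene or transcript. Deposited TPM and FPKM are those counts after division by effective length, so that reads assigned to a shorter transcript weigh more. Deposited isoform percent gives each transcript's share of gene TPM. The deposited bounds of TPM, a signal unit, are printed for Casp8 only.

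Names, types and sequences came from GENCODE M21 (GRCm38): all 46 transcripts of the members were found, 45 with the deposited length. The 26248 rows without a gene name (2 and 0 counts) and 97 spike-in rows (0 counts) were left out. The members and lists were chosen with earlier results of these data known. The text names the members, the highest 3 and up to 4 undetected genes of each list, both genes of each pair and the leading transcripts; a few other list genes were named after their values were seen, and some genes the rule picks are not reported here.

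Expected counts were rounded and compared by an exact binomial test (SciPy 1.17.1), with sizes from edgeR 4.0.16 (TMM), 0.5 counts added for folds, and DESeq2 1.42.0 size factors as an alternative. With 1 group no test between conditions was possible.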

Additional observations from a re-analysis of the deposited data

How the results depend on the processing

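The count of members expressed stayed at 6 or 7 under every threshold, unit and choice of models tried, and at 7 in each library alone. The count of other listed genes expressed went from 27 to 29 at 0.5 TPM and 18 at 5 TPM. Full-length models and the limit of 80% were chosen after seeing the data. Over full-length models 5 neighbours in the order exceeded the spread instead of 3, and Xiap against Apaf1 turned to -0.55 (also at 80%). With protein-coding transcripts only, Casp6 against Birc2 turned to -0.78. Of the pairs beyond the spread in TPM, full-length models turned Casp9 against Casp2 to -1.62. They also turned Diablo against Xiap to 0.56 and Birc2 against Birc3 to -0.23 (these 2 also at 80%). The limit of 80% turned Casp9 against Xiap to 1.12. These alternatives leave out the short transcripts by construction.

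Members called higher in replicate 2 numbered 1 (Birc5), and 2 with no fold minimum (Casp6 added) or from TPM with no test (Birc2 added). Those called higher in replicate 1 numbered 1 (Apaf1), 0 at a fold of at least 2, and 2 with DESeq2 size factors, with no fold minimum or from TPM (Xiap added each time). Genes called in all went from 4649 to 8252 with no fold minimum and 2444 at a fold of at least 2. The count of members whose most abundant model is not full-length was 5, 4 by share of counts (Casp6 left), and 5 in each library alone. No paired analysis was possible because there is only 1 group. With 115 and 227 counts, Birc2 is the member that depth limits most among those detected.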
